A study of Homo sapiens with 12 samples.

Results

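Mature miRNAs that are known as brakes on the histone methyltransferase EZH2, or that come from the same hairpins, were followed through the TGF-β-induced epithelial-mesenchymal transition (EMT) of A549 cells. The members were hsa-miR-26a-5p, hsa-miR-26b-5p, hsa-miR-26b-3p, and hsa-miR-101-3p. They were chosen by name, with earlier results of these data known. All 4 were found among the 2588 mature miRNAs of the count table. Of these 4, 3 had enough reads to be tested among 491 tested miRNAs, while hsa-miR-26b-3p stayed below the expression filter. A549 cells are an epithelial line from a human lung adenocarcinoma, and the cytokine TGF-β makes them lose epithelial features. The cells were seeded in serum-free medium, and TGF-β1 was added for 0, 24, or 96 h, with 2 libraries at each time point. No library kept without TGF-β for 24 or 96 h was analysed here, so TGF-β and time in culture cannot be told apart. The labels do not say whether both libraries of a time point came from separate cultures, so the p-values measure the spread between these libraries, which may be technical.

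A miRNA guides an Argonaute protein to messenger RNAs by pairing of its seed, bases 2 to 8, with complementary sites that mostly lie in the 3′ untranslated region (UTR), and paired messages are repressed. EZH2 is the catalytic subunit of Polycomb repressive complex 2 (PRC2), which methylates histone H3 on lysine 27 and silences genes, and EED and SUZ12 are its other core subunits. miR-26a, miR-26b, and miR-101 are best known as tumor suppressors that repress EZH2, and loss of miR-101 has been described in several carcinomas. In a hairpin, 1 arm usually gives the guide strand, while the other arm is mostly degraded, and miR-26b-3p is such a passenger strand.

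The mature sequences are shown because the seed decides which messages a member can pair with. They are the RefSeq sequences, 5′ to 3′, with the seed in capitals, and all 4 members were matched by name.

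hsa-miR-26a-5p: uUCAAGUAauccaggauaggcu
hsa-miR-26b-5p: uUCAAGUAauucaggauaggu
hsa-miR-26b-3p: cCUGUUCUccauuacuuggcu
hsa-miR-101-3p: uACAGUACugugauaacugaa

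hsa-miR-26a-5p and hsa-miR-26b-5p carried the same seed. Counted from the 5′ end of miR-26a-5p, they differed by C11U and C21U, and miR-26a-5p had 22 bases against 21. The seeds of hsa-miR-101-3p and hsa-miR-26b-3p were not found in any other mature name of the RefSeq table. Only miR-1297 and miR-4465 shared the miR-26 seed among the 2370 mature names. miR-144-3p shared bases 2 to 7 with miR-101-3p and differed from it within the seed by C8U, and also at bases after the seed. None of these 3 added many reads. miR-4465 had 0 reads in every library, where a count of 0 allows up to 3 reads. miR-1297 had at most 2 reads in a library, and miR-144-3p had 3 reads in 0 h replicate 2 and 0 elsewhere.

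The members come from 5 precursor genes, placed on GRCh37 by GENCODE release 44. MIR26A1 lies at chr3:38010895-38010971 on the plus strand in an intron of CTDSPL, and MIR26A2 at chr12:58218392-58218475 on the minus strand in an intron of CTDSP2. MIR26B lies at chr2:219267369-219267445 on the plus strand in an intron of CTDSP1, so that each miR-26 hairpin sits in a gene of the same small phosphatase family, on the strand of its host. MIR101-1 lies at chr1:65524117-65524191 on the minus strand, in an intron of an annotated JAK1 transcript, and MIR101-2 at chr9:4850291-4850381 on the plus strand in an intron of RCL1. The MIR26B hairpin is shown because both of its arms are members. Capitals mark miR-26b-5p, which comes first, and miR-26b-3p.

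MIR26B: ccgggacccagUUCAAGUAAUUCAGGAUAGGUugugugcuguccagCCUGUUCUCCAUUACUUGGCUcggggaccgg

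Sites for both seeds were present in the EZH2 message. A match to bases 2 to 8 is TACTTGA for miR-26 and GTACTGT for miR-101, searched on the sense strand only, and the motifs do not overlap in the EZH2 3′ UTR, which has 263 bases in the transcript marked as canonical by GENCODE. The 3 windows below are from GRCh37 and the minus strand, 5′ to 3′, with the match in capitals.

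EZH2 at chr7:148504671-148504694, miR-101 match: cttcaggaacctcgaGTACTGTgg
EZH2 at chr7:148504616-148504639, miR-101 match: ttctgaatttgcaaaGTACTGTaa
EZH2 at chr7:148504480-148504503, miR-26 match: actttgaataaagaaTACTTGAac

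The matches began at bases 59, 114, and 250 of the 3′ UTR. Among 15790 canonical 3′ UTRs cut to their first 263 bases, 1.97% held the miR-26 match, 1.37% the miR-101 match, and 0.0507%, or 8 regions, both. The 3′ UTR of EED held 1 miR-101 match and no miR-26 match, and those of SUZ12 and of EZH1, the paralog of EZH2, held neither. A match describes the letters of a message only, and neither EZH2 RNA nor protein was measured in these libraries.

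The 6 libraries held between 2335185 and 5971197 reads on mature miRNAs, so that 1 read corresponded to between 0.167 and 0.428 CPM, the usual read count scaled to a fixed library total. Levels are given as CPM after TMM normalization, a scaling by edgeR that assumes that most miRNAs do not change, and changes as log2-fold changes with their standard error (SE). The largest single share of the reads was that of miR-21-5p, which took between 52.4% and 65.5% of a library and was highest at 96 h. The scaling therefore matters for every member, as described below. The sample titles carry dates without saying what they mark, and these are taken here as dates of sequencing. By that reading, all libraries were first sequenced on 21 April. The second run was on 4 May for 0 h replicate 2 and both 24 h libraries, and on 8 May for 0 h replicate 1 and both 96 h libraries.

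miR-26a-5p, the main carrier of the miR-26 seed, was the most abundant member and rose by 96 h after TMM scaling. The 0 h libraries had 5729 and 4280 CPM, the 24 h libraries 7033 and 6780 CPM, and the 96 h libraries 8475 and 7740 CPM. In these TMM levels the libraries of the 3 time points did not overlap, and the pair at 0 h lay farthest apart. As shares of reads, given below, those of 0 and 96 h did overlap. How many of all tested miRNAs separate in this way was not counted. The mean was 5004 ± 1025 CPM at 0 h (SD, n = 2), 6906 ± 179 at 24 h, and 8108 ± 520 at 96 h. Relative to 0 h, the log2-fold change at 96 h was 0.70 (SE 0.163), or 1.62-fold, with an adjusted p of 0.00691 (edgeR's quasi-likelihood test, Benjamini-Hochberg). At 24 h it was 0.46 (SE 0.162, adjusted p = 0.108), and between 24 and 96 h 0.23 (SE 0.162, adjusted p = 0.374), neither of which passed the test. miR-26a-5p ranked between place 11 and place 19 of all mature miRNAs in the libraries.

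miR-101-3p, the second of the EZH2 regulators, followed the same course at a lower level. Its 0 h libraries had 1596 and 1246 CPM, those of 24 h 1812 and 1923 CPM, and those of 96 h 1937 and 2426 CPM. In TMM levels the groups did not overlap, although 96 h replicate 1 lay only just above 24 h replicate 2. How many of all tested miRNAs do the same was not counted here either. As shares of reads, given below, the 96 h libraries lay on either side of the 0 h pair. The mean was 1421 ± 247 CPM at 0 h (SD, n = 2), 1867 ± 78.4 at 24 h, and 2182 ± 346 at 96 h. The log2-fold change at 96 h relative to 0 h was 0.62 (SE 0.167), or 1.54-fold, with an adjusted p of 0.0139 in edgeR's test. At 24 h it was 0.39 (SE 0.167, adjusted p = 0.156), and between 24 and 96 h 0.22 (SE 0.167, adjusted p = 0.39).

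miR-26b-5p, which has the seed of miR-26a-5p, did not follow it. Levels of 1429 and 1478 CPM at 0 h were followed by 2100 and 1708 CPM at 24 h and by 1423 and 1696 CPM at 96 h. Both 24 h libraries lay above both 0 h libraries, while the 96 h libraries lay on either side of the 0 h pair. The share of all tested miRNAs with such a separation at 24 h was also not counted. The mean was 1453 ± 35.0 CPM at 0 h (SD, n = 2), 1904 ± 278 at 24 h, and 1559 ± 193 at 96 h. The log2-fold change was 0.39 at 24 h (SE 0.154, adjusted p = 0.137), 0.10 at 96 h (SE 0.154, adjusted p = 0.617), and -0.29 between 24 and 96 h (SE 0.154, adjusted p = 0.243), and none passed edgeR's test.

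miR-26b-3p was close to the limit of detection. Its reads numbered 4 and 14 in the libraries of 0 h, 6 and 5 in those of 24 h, and 7 and 3 in those of 96 h, which is between 0.814 and 4.18 CPM. Only 0 h replicate 2 stood out, with the other 5 libraries at 7 reads or fewer. A difference between time points was not detectable at this depth. Without the expression filter, edgeR gave a log2-fold change of -1.16 at 96 h relative to 0 h with an adjusted p of 0.384.

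**Figure D1:**
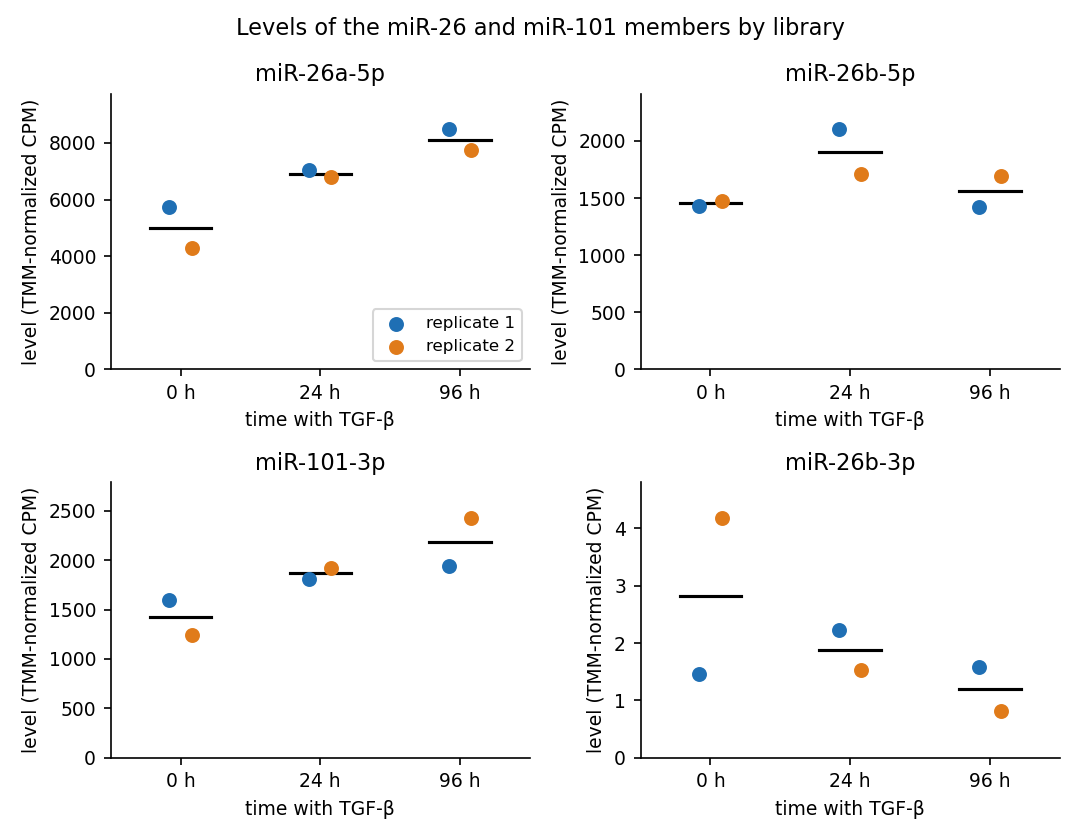
Level of each member in TMM-normalized CPM on linear axes from 0, at 0, 24, and 96 h with TGF-β; points are single libraries and black lines the means of 2. miR-26a-5p and miR-101-3p are lowest at 0 h and highest at 96 h, miR-26b-5p is highest at 24 h, and miR-26b-3p stays at 4.18 CPM or less.

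Against all miRNAs, these changes were moderate. At 96 h, 2 of the 3 tested members passed an adjusted p under 0.05 relative to 0 h, both higher, where 44.0% of the 491 tested miRNAs passed and 22.8% passed as higher. No member passed the study's second threshold, an absolute log2-fold change above 1, which 25.9% of the tested miRNAs passed together with the adjusted p. At 24 h, 0 of the 3 tested members passed edgeR's test, where 7.13% of all tested miRNAs passed and 3.46% passed both thresholds. The unadjusted p at 24 h was 0.0167 for miR-26a-5p, 0.0299 for miR-26b-5p, and 0.0401 for miR-101-3p. Between 24 and 96 h no member passed either, with 12.6% of all tested miRNAs at an adjusted p under 0.05 and 5.91% past both thresholds; the smallest unadjusted p among the members was 0.0904, for miR-26b-5p. Of the 491 tested miRNAs, 113 had a larger log2-fold change at 96 h than miR-26a-5p and 123 than miR-101-3p, while 40.5% had a larger one than miR-26b-5p. Both 0 h comparisons use the same 0 h libraries.

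**Figure D2:**
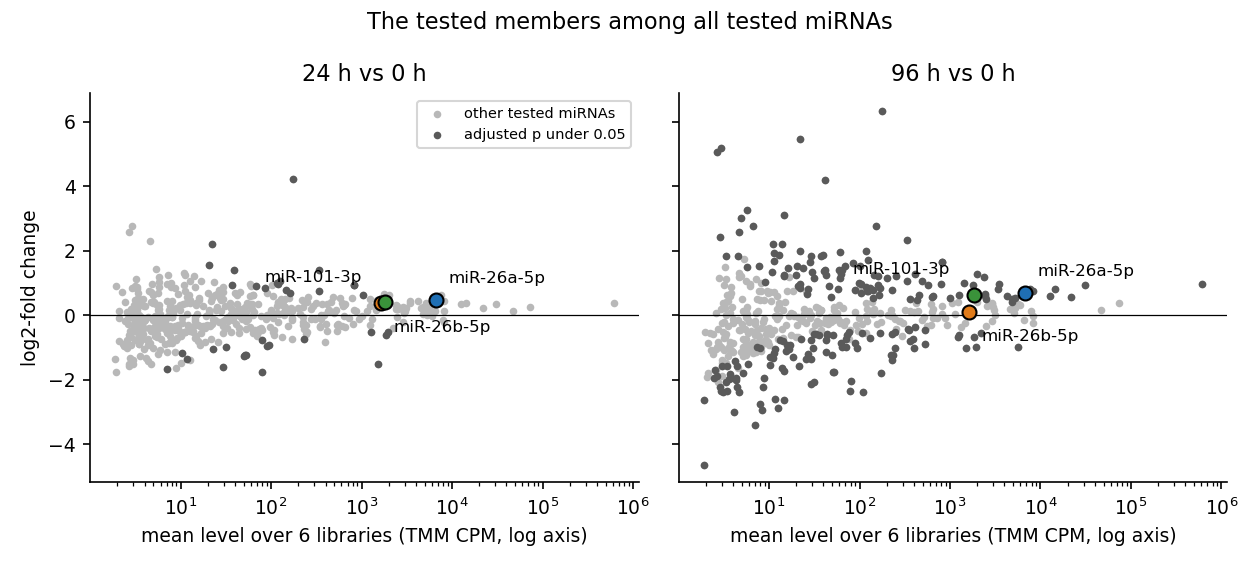
log2-fold change of the 491 tested miRNAs against their mean level over 6 libraries on a log axis, at 24 h (left) and 96 h (right) relative to 0 h; dark points passed an adjusted p under 0.05 and colored points are members. The 3 tested members lie together at 0.39 to 0.46 at 24 h, and at 96 h miR-26b-5p, at 0.10, lies below miR-101-3p at 0.62 and miR-26a-5p at 0.70.

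The calls at 96 h each depended on a library. Without 96 h replicate 1, the log2-fold change of miR-26a-5p was 0.66 with an adjusted p of 0.0535, and without 96 h replicate 2, that of miR-101-3p was 0.49 with an adjusted p of 0.111. Without 0 h replicate 1, which leaves a 0 h library with the same dates of sequencing as the 24 h libraries, the 24 h changes passed edgeR's test, at 0.73 for miR-26a-5p (adjusted p = 0.00269) and 0.62 for miR-101-3p (adjusted p = 0.0131), but not at 0.40 for miR-26b-5p (adjusted p = 0.111). Without 0 h replicate 2, which leaves the 0 h library with the dates of the 96 h libraries, the 96 h changes were 0.51 for miR-26a-5p (adjusted p = 0.0113), 0.46 for miR-101-3p (adjusted p = 0.0366), and 0.14 for miR-26b-5p (adjusted p = 0.551). In both cases the lone 0 h library was assumed to vary like the other groups. The 24 and 96 h libraries share no second date, so their difference and that date cannot be told apart.

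The scaling of the libraries set the sign of the changes at 96 h. The distance of the members from the other miRNAs stayed nearly the same under 4 scalings of the counts. This was fixed in advance, because a scaling shifts all miRNAs of a library alike, so it does not test the changes. With total counts, which include miR-21-5p, the log2-fold change at 96 h relative to 0 h was -0.02 for miR-26a-5p (adjusted p = 0.907), -0.09 for miR-101-3p (adjusted p = 0.644), and -0.62 for miR-26b-5p (adjusted p = 0.0165). The median of all 491 tested miRNAs was -0.83 in this scaling and -0.10 with TMM. Relative to that median, miR-26a-5p was higher by 0.81 with total counts and 0.80 with TMM, miR-101-3p by 0.74 and 0.72, and miR-26b-5p by 0.21 and 0.20. With total counts but without miR-21-5p, the changes were 0.35 for miR-26a-5p (adjusted p = 0.0604), 0.27 for miR-101-3p (adjusted p = 0.164), and -0.25 for miR-26b-5p (adjusted p = 0.196). As shares of all reads, miR-26a-5p held 0.670% and 0.584% in the 0 h libraries, 0.742% and 0.690% in those of 24 h, and 0.626% and 0.613% in those of 96 h, and miR-26b-5p held 0.167% and 0.202%, 0.222% and 0.174%, and 0.105% and 0.134%. The share of miR-26a-5p at 96 h lay within the range of 0 h, while both 96 h shares of miR-26b-5p lay below all earlier ones. The share of miR-101-3p was 0.187% and 0.170% in the 0 h libraries, then 0.191% and 0.196%, and 0.143% and 0.192% in those of 96 h. Together the 4 members held between 0.874% and 1.16% of the reads of a library.

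**Figure D3:**
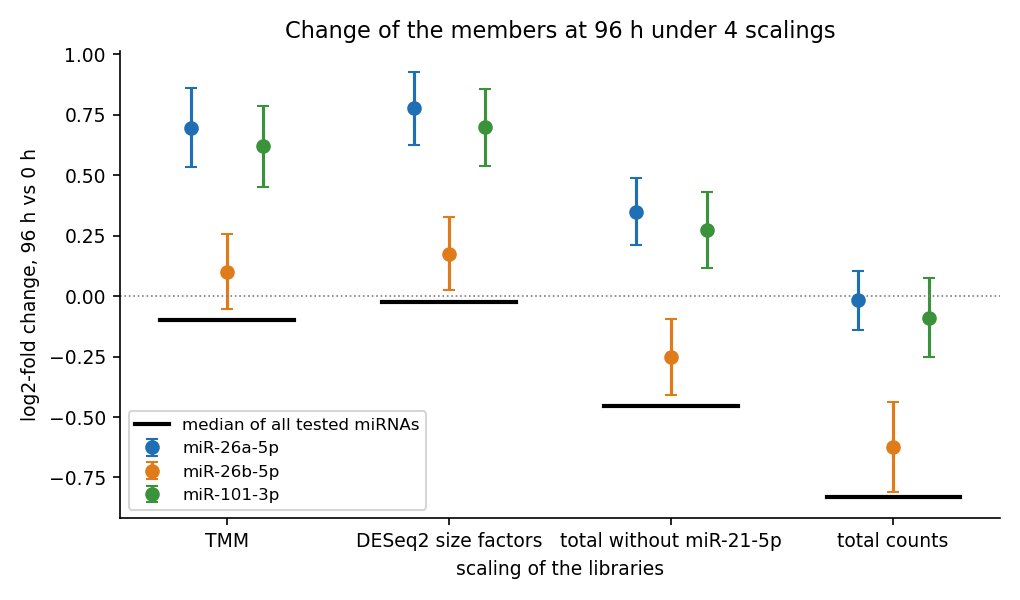
log2-fold change at 96 h relative to 0 h under 4 scalings of the libraries; points are members with their SE from edgeR's fit to 6 libraries, and black bars are the median of all tested miRNAs. All values drop from TMM to total counts. miR-26a-5p stays about 0.80 above the median, as it must when a scaling shifts all miRNAs of a library alike.

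Ratios of members within a library do not depend on the scaling. The ratio of miR-26a-5p to miR-26b-5p reads was 4.01 and 2.90 in the libraries of 0 h, 3.35 and 3.97 in those of 24 h, and 5.96 and 4.56 in those of 96 h. Both 96 h libraries lay above all 4 earlier libraries. The mean ratio was 3.45 ± 0.788 at 0 h (SD, n = 2), 3.66 ± 0.44 at 24 h, and 5.26 ± 0.984 at 96 h, so that it was 1.53-fold higher at 96 h than at 0 h as a ratio of geometric means. The exact two-sided permutation test gave p = 0.333, which is the smallest p that 2 libraries against 2 allow, and no ratio can therefore reach 0.05. Of the reads with the miR-26 seed, miR-26a-5p gave 80.0% and 74.3% in the 0 h libraries, 77.0% and 79.9% in those of 24 h, and 85.6% and 82.0% in those of 96 h, and miR-26b-5p nearly all of the rest. Reads of different miRNAs are captured with different efficiency, so the ratio says how the balance moved and not how many molecules of each a cell holds.

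The ratio of miR-26a-5p to miR-101-3p, which have unrelated seeds, overlapped between all time points. Libraries of 0 h had 3.59 and 3.43, those of 24 h 3.88 and 3.53, and those of 96 h 4.38 and 3.19, with 96 h libraries on both sides of all others. The mean was 3.51 ± 0.109 at 0 h (SD, n = 2) and 3.78 ± 0.838 at 96 h, a 1.06-fold difference with p = 1.0 in the exact permutation test. The ratio of miR-26b-5p to miR-101-3p, which was added after the data had been seen, was 0.895 and 1.19 in the 0 h libraries, 1.16 and 0.888 in those of 24 h, and 0.735 and 0.699 in those of 96 h. The 96 h libraries were again outside the range of the earlier ones, here below it (exact permutation p = 0.333 for 96 h against 0 h). Other ratios separated too. That of miR-101-3p to miR-101-5p did so between all time points, at 1452 and 1392, 2434 and 6285, and 2134 and 2236. It rests on only 1 to 4 reads of miR-101-5p in a library. The ratio of miR-26b-5p to miR-26b-3p overlapped between all time points. In all, 15 comparisons of ratios were made, and the lowest adjusted p over them was 0.714 in the exact permutation tests.

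**Figure D4:**
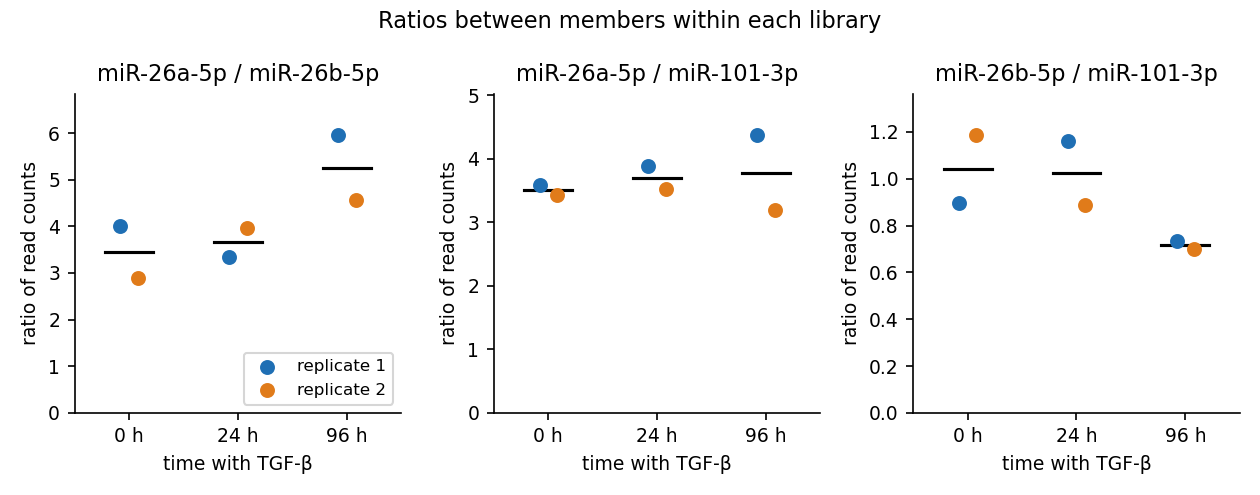
Ratios of read counts between members within each library at 0, 24, and 96 h with TGF-β, on linear axes from 0; points are single libraries and black lines the means of 2. The ratio of miR-26a-5p to miR-26b-5p is above 4.5 in both 96 h libraries, and that of miR-26b-5p to miR-101-3p is lowest there, while that of miR-26a-5p to miR-101-3p spans 3.19 to 4.38 at 96 h.

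The runs of a library differed less in the ratio of miR-26a-5p to miR-26b-5p than the libraries of a time point did. In level, this held for the median only. The runs of 5 libraries could be separated, and there the ratio of miR-26a-5p to miR-26b-5p was 3.99 in the deeper run and 4.07 in the other run of 0 h replicate 1, and 2.94 and 2.83 in those of 0 h replicate 2. It was 3.31 and 3.43 in the runs of 24 h replicate 1, 4.03 and 3.89 in those of 24 h replicate 2, and 5.93 and 6.03 in those of 96 h replicate 1. In either run, 96 h replicate 1 had the highest of these ratios and 0 h replicate 2 the lowest, while 0 h replicate 1 and 24 h replicate 2 changed places. Over the 3 tested members, the runs of a library differed by a median of 0.0589 on the log2 scale of CPM of the total, up to 0.186. The 2 libraries of a time point differed by a median of 0.198, from 0.0302 to 0.426, so the ranges overlapped. The runs of 96 h replicate 2 were not separated.

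The passenger strands were rare at every time point. Over all 6 libraries, 39 reads came from miR-26b-3p against 32603 from miR-26b-5p, which is 0.119% of both arms (95% Wilson interval 0.0874% to 0.163%, counting error only). The share was 0.203% at 0 h (0.128% to 0.32%), 0.0979% at 24 h (0.0547% to 0.175%), and 0.0798% at 96 h (0.0433% to 0.147%), with 14 of the 18 reads at 0 h from replicate 2. miR-101-5p, the other arm of MIR101-1, had 17 reads against 37169 of miR-101-3p, or 0.0457% (0.0285% to 0.0732%). The miR-101-3p reads can also come from MIR101-2, so this is not the arm share of MIR101-1 alone. miR-26a-1-3p, the other arm of MIR26A1, had at most 4 reads in a library. miR-26a-2-3p, the other arm of MIR26A2, had 11 and 15 reads in the 0 h libraries, 19 and 33 in those of 24 h, and 17 and 18 in those of 96 h. It was the single passenger strand that passed the filter, with a log2-fold change of 1.01 at 24 h (SE 0.415, adjusted p = 0.147) and 0.03 at 96 h (SE 0.436, adjusted p = 0.961) relative to 0 h in edgeR's test.

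Because 2 hairpins give the same miR-26a-5p and 2 the same miR-101-3p, the table lists each of these miRNAs in 2 entries with nearly the same reads, and the table does not name the hairpin of an entry. The entries of miR-26a-5p differed by 19 to 39 reads in a library, at most 0.137% of the larger entry. Those of miR-101-3p differed by 45 to 228 reads, or 1.08% to 2.64%. The hairpins of miR-101-3p are shown because they differ from base 2 after the end of the mature miRNA onward. Capitals mark miR-101-3p, and in MIR101-1 also miR-101-5p before it.

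MIR101-1: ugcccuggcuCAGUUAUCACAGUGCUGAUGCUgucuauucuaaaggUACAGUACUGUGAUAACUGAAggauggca
MIR101-2: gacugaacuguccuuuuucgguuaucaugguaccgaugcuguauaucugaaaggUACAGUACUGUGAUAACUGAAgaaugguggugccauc

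The output of each hairpin could therefore not be measured apart.

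Likeness of course was measured as the root mean square difference of centered log2 levels over the 6 libraries, compared with 321 other miRNAs whose mean reached 10 CPM. For miR-26a-5p, the nearest were let-7a-5p at 0.0733, miR-340-5p at 0.0857, and let-7g-5p at 0.0941, with miR-101-3p in place 12 at 0.144 and miR-26b-5p in place 115 at 0.329. For miR-101-3p, they were let-7a-5p at 0.102, miR-99b-5p at 0.109, and miR-182-5p at 0.127. For miR-26b-5p, they were miR-361-5p at 0.0689, miR-3613-5p at 0.0851, and miR-574-5p at 0.089. let-7a-5p was the nearest to both members that rose after TMM scaling. Its levels were 11069 and 8889 CPM in the 0 h libraries, 12719 and 12613 CPM in those of 24 h, and 15184 and 15167 CPM in those of 96 h. Its 0 h libraries were apart in the same direction as those of miR-26a-5p. The TMM factors of the 0 h libraries, 1.17 and 1.36, shift all miRNAs in this direction. In CPM of the total, these libraries had 12939 and 12128 for let-7a-5p and 6697 and 5839 for miR-26a-5p.

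Other miRNAs described as regulators of EZH2 or SUZ12 were measured beside the members. Of a list of 13, 10 were tested, while miR-124-3p, miR-214-3p, and miR-217 had 6 reads or fewer in each library. At 96 h, 3 of the 10 were higher than at 0 h, 1 was lower, and 6 did not pass edgeR's test, where 22.8% of all tested miRNAs were higher and 21.2% lower, with a median log2-fold change of 0.14 against -0.10 over all tested miRNAs. After TMM scaling, let-7a-5p rose by 0.60 (adjusted p = 0.00941) and let-7c-5p by 0.56 (adjusted p = 0.00842). As shares of reads, both were lower in the 96 h libraries than in the 0 h libraries, so their direction depended on the scaling. The mean share of let-7a-5p fell from 1.25% to 1.16%, and that of let-7c-5p from 0.0646% to 0.0574%. The mean share of miR-200b-3p, also called higher, rose from 0.00556% to 0.0102%. miR-200b-3p, an epithelial miRNA that represses the EMT factors ZEB1 and ZEB2 and has been described to target SUZ12, rose by 1.60 (SE 0.2, adjusted p = 0.000257), from 45.1 and 43.0 CPM at 0 h to 147 and 120 CPM at 96 h. miR-138-5p fell by 1.78 (SE 0.233, adjusted p = 0.000299), from 210 and 334 CPM to 73.7 and 84.6 CPM. At 24 h 1 of the 10 was higher and 0 lower in edgeR's test, where 3.46% of all were higher and 3.67% lower, with a median of 0.21 against -0.004 over all, and between 24 and 96 h 1 was higher and 1 lower, where 8.96% of all were higher and 3.67% lower, with a median of 0.15 against -0.05. miR-30d-5p, whose level was closest to that of miR-26a-5p, had a change of 0.30 at 96 h (adjusted p = 0.113).

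Markers of other cell types were measured beside the members, and their part in the changes was not tested. Of 6 fibroblast miRNAs, 1 was above 10 CPM at 24 and 96 h, and their summed level went from between 5.67 and 8.79 CPM at 0 h to between 420 and 452 CPM at 96 h. Nearly all of this was miR-143-3p, at 409 and 443 CPM at 96 h, while miR-214-3p had 0 reads in all libraries. Of 6 blood miRNAs, 1 was above 10 CPM, and the sum fell from between 135 and 138 CPM to between 29.5 and 36.1 CPM with miR-486-5p, while miR-223-3p had 0 reads and the erythroid miR-451a at most 3. The 6 epithelial miRNAs summed to between 119 and 120 CPM at 0 h and between 235 and 243 CPM at 96 h, with miR-205-5p at 3 reads or fewer.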

How the data were processed

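Small RNA libraries of A549 cells (Illumina small RNA kit, an Illumina HiSeq) were counted by the authors with miRDeep2. The deposited counts are whole reads per mature miRNA and precursor entry, with 2 runs of each of the 6 libraries summed (12 runs); the submitters' processing notes name hg19, and the miRNA reference is not given in the sources used here. The authors also deposited a normalized signal: both runs scaled to the same total, then summed. There, 1 column repeats 96 h replicate 1 and was left out, so 96 h replicate 2 has no normalized value. The members and lists were chosen with earlier results of these data known.

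For each mature miRNA the entry with the highest total was used. Counts of the 6 libraries entered edgeR 4.0.16 (R 4.3.3): filterByExpr (minimum count 10), TMM, 1 quasi-likelihood model with the time point as its term, F-tests, and Benjamini-Hochberg adjustment over 491 miRNAs. The SE is the absolute log2-fold change over the square root of F. A log2-fold change was called at an adjusted p under 0.05, and also with an absolute value above 1 as in the study. Ratios were compared by exact permutation tests in Python 3.11.15 with scipy 1.17.1. The scripts were tested on simulated data. Runs were separated by solving for the 2 run totals that explain counts and normalized values together; between 96.5% and 100.0% of the entries were then matched within 0.01 of the normalized value, which miR-26a-5p in 96 h replicate 1 missed by being 0.0273 off. Between 8 and 83 neighboring run totals matched equally well in a library, and each gave the same run counts for all members. Wilson intervals (95%) and the 3 reads that a count of 0 allows cover counting error only. Sequences are from RefSeq (GRCh38 table) and GENCODE release 44 (GRCh37), the latter also for positions and 3′ UTRs.

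The miRNAs named besides the members are the other strands of their precursors, seed sharers, a list of 13 regulators of EZH2 or SUZ12, the 3 miRNAs most like each tested member, lists of fibroblast, blood, and epithelial miRNAs, and miR-21-5p. Alternatives were DESeq2's size factors, the Wald test of DESeq2 1.42.0, total counts (also without miR-21-5p), limma 3.58.1 on log2(normalized value + 1 or + 0.1), other filters, only the libraries compared, the replicate number as a block, leaving out each library, and sums over precursors.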

Additional observations from a re-analysis of the deposited data

How the results depend on the processing

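No alternative turned the direction of a tested member at 24 h, while at 96 h it depended on the scaling. At 96 h relative to 0 h, the log2-fold change with total counts was -0.018 for miR-26a-5p, -0.62 for miR-26b-5p, and -0.090 for miR-101-3p; with total counts without miR-21-5p it was 0.35, -0.25, and 0.27. With limma on normalized values + 1, which lacks 96 h replicate 2, it was 0.029, -0.78, and -0.28, and with + 0.1 it was 0.029, -0.78, and -0.28; relative to the median of all miRNAs in the fit with + 1, the values were 0.80, -0.0087, and 0.49. With a mean of at least 10 CPM, miR-26b-5p was at -0.042. At 96 h relative to 24 h, total counts gave -0.21 for miR-26a-5p, -0.73 for miR-26b-5p (adjusted p = 0.0256 in edgeR's test), and -0.21 for miR-101-3p, and limma gave -0.18 for miR-26a-5p and -0.42 for miR-101-3p with either added value. When each library was left out in turn, the 24 h change ranged from 0.28 to 0.73 for miR-26a-5p and from 0.24 to 0.62 for miR-101-3p, and the 96 h change relative to 0 h from 0.51 to 0.97 for miR-26a-5p and from 0.46 to 0.85 for miR-101-3p.

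The number of differentially expressed miRNAs at 24 h, 17, was 33 with total counts and 26 without miR-21-5p, and 4 to 36 with a library left out. At 96 h, 127 became 215 with total counts. Between 24 and 96 h, 29 became 72 with total counts, 10 and 12 with limma, 46 without a filter, 17 with at least 10 CPM, 44 with only the libraries compared, and 9 to 46 with a library left out. With sums over precursors, which count miR-26a-5p reads in both entries, the ratio of miR-26a-5p to miR-26b-5p was 6.9, 7.31, and 10.5 at 0, 24, and 96 h, and that of miR-101-3p to miR-101-5p 2818, 8610, and 4318. The cause of the differences was not tested.

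Whether equal replicate numbers pair the libraries was not tested. Deviations from the group means had no common sign, with correlations of -0.30 between 0 and 24 h, 0.31 between 0 and 96 h, and -0.18 between 24 and 96 h. With the replicate block, no member changed its side of the threshold, miR-26a-5p at 96 h was at 0.71 relative to 0 h (adjusted p = 0.00473 in edgeR's test), and the numbers of differentially expressed miRNAs were 20, 124, and 41. miR-26b-3p was tested only in the alternatives whose filter it passed. With 2 libraries a time point and 3 to 14 reads, depth limits miR-26b-3p.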

Other observations

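The change of abundant miRNAs after TMM scaling was looked at after seeing the data. Of the 57 tested miRNAs with means from 1000 CPM up, which include miR-26a-5p, miR-26b-5p, and miR-101-3p, 43 had a log2-fold change above 0 at 96 h relative to 0 h, 24 passed edgeR's test as higher, and 7 as lower, with a median of 0.37 against -0.10 over all 491. Beside that median, miR-26a-5p at 0.70 and miR-101-3p at 0.62 lay above and miR-26b-5p at 0.10 below. At 24 h, 1 of the 57 passed the test as higher and 4 as lower, while their median was 0.23, with miR-26b-5p at 0.39, miR-101-3p at 0.39, and miR-26a-5p at 0.46.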
